A study of Mus musculus with 12 samples.

Results

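Histone transcripts were followed in natural killer (NK) cells of spleen and bone marrow, in mice with or without the microRNA miR-142. The members were chosen by gene symbol alone: every probe set whose platform annotation gives 1 symbol beginning with H1f, H2ac, H2bc, H2az, H2ax, H3c, H3f or H4c, or an older form of these names. This gave 35 probe sets for 34 genes, among 21789 probe sets with exactly 1 symbol, since H2az1 has 2 probe sets. Of the 35, 27 belong to the histone gene clusters and 8 to variant genes outside them (H1f7, H1f8, H1f10, H2ax, H2az1 with 2 probe sets, H2az2 and H3f3a). The mean signal of 27 members lay above the 40th percentile of all these probe sets (5.50 on the log2 scale) and that of 8 lay below it, and all 35 were tested.

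The 12 arrays form 4 groups of 3 biological replicates, with wild type and miR-142 knockout cells from either tissue. All came from C57BL6 mice aged 7 to 10 weeks, age- and sex-matched, from which cells negative for CD3 and positive for NK1.1 were sorted. The labels do not state how the knockout was made, which cells besides NK cells lack the microRNA, or whether animals were pooled. The study asked which genes differ between wild type and knockout NK cells of each tissue.

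Histones are the proteins around which DNA is wound: H2A, H2B, H3 and H4 form the nucleosome core, and H1 binds the linker DNA between cores. Most histone genes lie in clusters, lack introns and are expressed in S phase, when new DNA is packaged, and their mRNAs end in a stem-loop instead of a poly(A) tail. Variant genes such as H2az1, H2ax and H3f3a lie elsewhere, and several of them are expressed through the cell cycle, while NK cells divide mostly in the bone marrow and less as mature cells in the spleen.

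The clustered members lay on chromosome 13 (23 genes) and chromosome 3 (4 genes), and they were short, with a median RefSeq gene length of 505 bases. RefSeq promoter windows (GRCm38.p6, 250 bases before to 50 after each gene start) were held for 29 of the 34 genes, and H2bc4, H2bc21, H2ax, H3c7 and H4c14 were without one. The 130 bases before the start are printed for 5 genes on which the results turn: 2 that were higher in knockout NK cells (H1f2, H2bc8) and 3 that were higher in wild type bone marrow than spleen (H1f5, H2bc14, H4c6). Each is written 5′ to 3′ on the gene's strand, and capitals mark the CCAAT box, the H1-type element AAACACA, the octamer ATTTGCAT, the TATAAA box and the H4-type element GGTCC on either strand. No match overlapped another in these 5 stretches.
H1f2, chr13:23738677-23738806, plus strand: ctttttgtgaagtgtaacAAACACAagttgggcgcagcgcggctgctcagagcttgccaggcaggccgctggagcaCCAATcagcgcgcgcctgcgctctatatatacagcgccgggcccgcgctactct
H1f5, chr13:21780626-21780755, minus strand: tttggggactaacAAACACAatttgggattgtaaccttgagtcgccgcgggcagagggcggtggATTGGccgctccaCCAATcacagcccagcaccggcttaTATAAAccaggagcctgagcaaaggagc
H2bc8, chr13:23571270-23571399, plus strand: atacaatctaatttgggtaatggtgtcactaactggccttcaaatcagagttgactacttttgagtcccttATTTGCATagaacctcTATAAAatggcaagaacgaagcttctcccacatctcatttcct
H2bc14, chr13:21721914-21722043, plus strand: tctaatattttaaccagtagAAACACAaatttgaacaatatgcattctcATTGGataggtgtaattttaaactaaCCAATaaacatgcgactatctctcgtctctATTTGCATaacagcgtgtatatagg
H4c6, chr13:23551669-23551798, minus strand: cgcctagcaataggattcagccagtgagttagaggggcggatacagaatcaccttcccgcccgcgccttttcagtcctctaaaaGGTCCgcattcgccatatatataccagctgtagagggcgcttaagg

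Among the 23 clustered genes with a window, CCAAT occurred in 5 of 5 H1, 4 of 4 H2A, 7 of 7 H2B, 2 of 2 H3 and 2 of 5 H4 genes, against 37.4% of all 32851 windows. AAACACA occurred in 4 of 5 H1, 2 of 4 H2A and 2 of 7 H2B genes and in 0 of the H3 and H4 genes, against 7.18% of all windows. The octamer ATTTGCAT occurred in 3 of 4 H2A and 5 of 7 H2B genes and in 0 of the other classes, against 1.74%. GGTCC occurred in 5 of 5 H4 genes and in 1 gene of each other class, against 45.5%, and TATAAA in 15 of the 23, against 13.6%. H1f2 and H1f5, which behaved differently in the results that follow, carried AAACACA and CCAAT at like positions. From the start, AAACACA began at -112 and -117, and the nearest CCAAT box at -54 and -53. H1f5 also carried TATAAA at -28 and further CCAAT matches at -66 (minus strand) and -168, which H1f2 lacked. H2bc8 and H2ac8 lie head to head, and their windows share 279 of 300 bases. A match of letters is a description and shows no bound factor.

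Mir142 itself read 6.77 to 8.25 in the 6 wild type arrays and 4.05 to 4.70 in the 6 knockout arrays. All 12 NK cell markers examined (such as Ncr1, Klrb1c and Eomes) were measured, and all lay above the 40th percentile. The arrays fall into 2 runs of array numbers: 7 arrays, and 5 arrays (wild type spleen 3, knockout spleen 1 and 2, wild type bone marrow 2 and 3). All 3 knockout bone marrow arrays lie in the first run. Differences were therefore fitted with the run as a covariate and can deviate from the difference of the raw means. A member was called at an adjusted p under 0.05 over all 21789 probe sets in limma. The number of arrays limits the precision. In data simulated from these arrays, changed probe sets were drawn from all 21789. True log2 changes of 1 were recovered in 83.4% of cases between wild type tissues, 84.8% between genotypes in spleen and 79.3% in bone marrow. Changes of 0.5 were recovered in 10.9%, 7% and 0%. Clustered histones varied more in bone marrow, with a median SD of 0.46 in knockout and 0.32 in wild type. Over all probe sets it was 0.14 and 0.13. The rates therefore describe a typical probe set, and recovery among the histones was not simulated. In sorted bulk cells, a change in the share of cells in S phase and a change in histone mRNA per cell cannot be told apart. Clustered histone genes are near-identical within a class, and cross-hybridisation between them was not tested.

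A subset of histone transcripts was higher in bone marrow than in spleen NK cells of wild type mice. Of the 35 probe sets, 10 were called and all 10 were higher in bone marrow, against 2.07% of all probe sets called higher and 0.477% called lower (2.55% in either direction). The 10 comprised 2 of 8 H1, 3 of 8 H2A, 3 of 9 H2B, 2 of 6 H4 and 0 of 4 H3 probe sets. The median log2 difference was 0.56 over the 35 and 0.77 over the 27 clustered probe sets, against -0.06 over all probe sets, and 8 of the 35 differences were negative. Without wild type bone marrow 1 the median of the 35 was 0.29. The 3 bone marrow arrays lay above the 3 spleen arrays in 17 of the 35, against 11.3% of all probe sets, and below them in 1, H3c15, against 17%.

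Among the linker histones, H1f5 read 8.17, 7.92 and 7.73 in the spleen arrays against 10.30, 9.95 and 9.37 in the bone marrow arrays. The groups were separated by over 1 log2 unit, and the fitted difference was 2.01 ± 0.38 (SE, n = 3 per group, adjusted p = 0.020), or 4.03-fold. H1f1 read 7.50, 7.22 and 7.32 against 9.23, 8.21 and 8.28, a difference of 1.36 ± 0.32 (SE, adjusted p = 0.048) in which bone marrow array 1 stood well above the other two. H1f2, the third well-measured linker histone, did not follow them: its fitted difference was -0.29 ± 0.23 (SE, adjusted p = 0.53). H1f3, which lay below the 40th percentile, gave 0.56 ± 0.30 (SE, adjusted p = 0.35), and the replication-independent H1f10 gave -0.07 ± 0.11 (SE, adjusted p = 0.78).

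The largest difference of any member was that of the core histone H2ac4, at 2.44 ± 0.57 (SE, adjusted p = 0.048), or 5.43-fold. H2ac4 read 6.60, 6.83 and 6.12 in spleen against 9.32, 9.28 and 8.15 in bone marrow. H2ax, the variant that is phosphorylated beside DNA breaks, read 8.06, 7.83 and 7.81 in spleen against 9.72, 9.68 and 9.05 in bone marrow. Neither pair of groups overlapped, and H2ax differed by 1.67 ± 0.38 (SE, adjusted p = 0.044), the sole variant gene among the 10. H2ac15 was also higher in bone marrow, by 1.58 ± 0.33 (SE, adjusted p = 0.031). The variant H2A.Z, which marks promoters and is made through the cell cycle, showed small differences: the 2 H2az1 probe sets gave -0.02 ± 0.11 and 0.00 ± 0.11 (SE) and H2az2 gave 0.29 ± 0.14 (SE, adjusted p = 0.30).

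Of the H2B genes, H2bc3 rose by 1.79 ± 0.42, H2bc14 by 1.58 ± 0.36 and H2bc1 by 0.67 ± 0.15 (SE) from spleen to bone marrow, with adjusted p-values of 0.049, 0.042 and 0.045. H2bc14 read 9.14, 9.04 and 9.15 in spleen against 10.98, 10.67 and 10.35 in bone marrow, with no overlap. H2bc1, a testis histone gene, lay below the 40th percentile, reading 4.86 to 5.11 in spleen and 5.62 to 5.84 in bone marrow. H2bc8 ran the other way, at -0.86 ± 0.37 (SE, adjusted p = 0.24), with 9.16, 9.32 and 8.94 in spleen against 8.45, 7.31 and 9.10 in bone marrow. Of the H4 genes, H4c6 rose by 1.39 ± 0.30 (SE, adjusted p = 0.033) and H4c14 by 1.04 ± 0.20 (SE, adjusted p = 0.020). H4c14 showed tight groups, with 9.33, 9.49 and 9.61 in spleen against 10.62, 10.42 and 10.62 in bone marrow. The variant H3f3a, which encodes H3.3, gave 0.30 ± 0.17 (SE, adjusted p = 0.36).

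**Figure D1:**
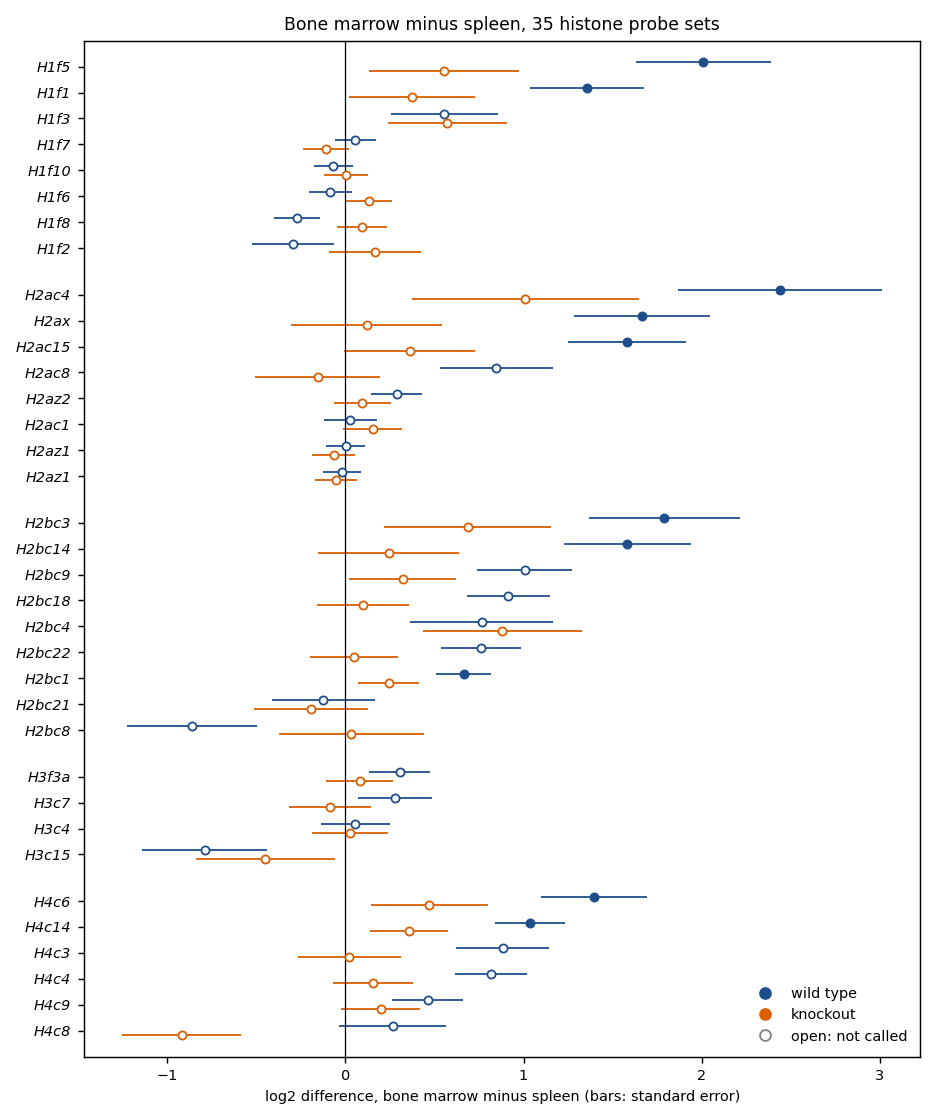
Fitted log2 difference, bone marrow minus spleen, of the 35 histone probe sets in wild type (blue) and knockout (orange) NK cells, grouped by histone class, with bars of 1 standard error; filled points were called by limma at an adjusted p under 0.05. The 10 filled points all belong to wild type and lie between 0.67 and 2.44.

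The 10 calls had the same sign within each of the 2 runs. Where the groups do not overlap this must be so, and it adds no separate support. The calls rested on single arrays. Without wild type spleen 2, wild type spleen 3 or wild type bone marrow 1, 0 of the 35 were called, and 1 was called without wild type spleen 1 or wild type bone marrow 2. The counts were 3 without knockout bone marrow 2, 4 without knockout spleen 1 or 2, 5 when either knockout spleen 3 or wild type bone marrow 3 was dropped, and 14 without knockout bone marrow 1 or 3. Calls over all probe sets fell too, from 556 to 57 without wild type bone marrow 1. When limma was given the 6 wild type arrays alone and no run covariate, 15 members were called, 14 higher and 1, H3c15, lower by -0.82. The share of all probe sets called in that fit is not given here. Over the 12 fits that leave out 1 array the difference of H1f5 stayed between 1.74 and 2.20 and that of H2ac4 between 2.12 and 2.77.

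Genes of DNA replication and granulocyte genes differed between the same groups. Of 31 measured replication genes, 13 were higher in wild type bone marrow and 0 lower, with a median difference of 1.03; the 4 largest among those called were Rrm2 at 1.70, Uhrf1 at 1.61, Clspn at 1.39 and Pole at 1.27. The summed linear signal of this list was 5937 to 6157 in wild type spleen and 8199 to 11839 in wild type bone marrow. Of 18 granulocyte markers, 10 were higher in wild type bone marrow (S100a8 by 3.72, S100a9 by 3.31, Ngp by 2.83 and Lcn2 by 2.55), and 9 of the 18 lay above the 40th percentile. Their summed signal was 736 to 1304 in spleen and 4894 to 5767 in bone marrow. Of 10 measured T cell markers, 3 were higher (Cd3g by 1.95, Cd3d by 1.88 and Cd3e by 1.46), with summed signals of 2393 to 2566 in spleen and 3415 to 3666 in bone marrow. Single markers of other lists were also higher: Tfrc of 7 erythroid genes, by 1.19, and Cd79a of 10 B cell genes, by 1.20, while 0 of 12 dendritic cell and monocyte markers were called. Of the 12 NK cell markers, 2 were lower in bone marrow (Prf1 by -0.64 and Itga2 by -0.50). With the replication list's level per array as a covariate, an alternative chosen after seeing the data, 0 histone probe sets and 0 of all probe sets were called, and the members' median became -0.19. With the granulocyte list's level instead, also chosen after seeing the data, 0 and 0 were called and the median was 0.64. In wild type cells neither list's level overlapped between the tissues, so list and tissue cannot be told apart here.

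In knockout NK cells the same comparison gave no call. Of the 35 probe sets, 0 were called by limma between knockout bone marrow and knockout spleen, 1 had an unadjusted p under 0.05, and 0.142% of all probe sets were called (0.0321% higher and 0.11% lower). The difference was positive for 27 of 35, with a median of 0.12 against 0.00 over all probe sets. The median was -0.05 without knockout bone marrow 1 and 0.28 without knockout bone marrow 3, so its sign rested on 1 array. The members with the smallest p were H4c8 at -0.92 ± 0.33, H2bc4 at 0.88 ± 0.45, H1f3 at 0.57 ± 0.33, H4c14 at 0.36 ± 0.22 and H2ac4 at 1.01 ± 0.64 (SE), and H2ac4 ran from 0.21 to 1.78 when 1 array was left out. The arrays separated fully in 3 members, 2 higher and 1 lower in bone marrow, against 7.56% and 6.23% of all probe sets.

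The knockout bone marrow arrays themselves differed widely. Array 1 gave the highest value of its group in 24 of the 27 clustered probe sets, and array 3 gave the lowest in 23. H2ac4 read 8.92, 8.55 and 6.42 in the 3 arrays, and H1f5 read 10.31, 9.41 and 8.43, so that array 1 reached the wild type bone marrow range and array 3 fell near knockout spleen (8.78, 8.72 and 8.51 for H1f5). The same order held in the replication list, where array 1 was highest in 28 and array 3 lowest in 30 of 31 genes. Wild type bone marrow showed part of it. There array 1 was highest in 18 of the 27 clustered probe sets and in 26 of the 31 replication genes. Wild type array 3 was lowest in 24 replication genes, and arrays 2 and 3 were each lowest in 12 clustered probe sets. The median SD of a clustered probe set was 0.46 in knockout bone marrow and 0.32 in wild type bone marrow, against 0.17 in each spleen group. Over all probe sets that median lay between 0.13 and 0.14 in every group. In knockout bone marrow the granulocyte list did not share the order of the clustered histones, with summed signals of 3307, 1739 and 2958 in arrays 1, 2 and 3.

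**Figure D2:**
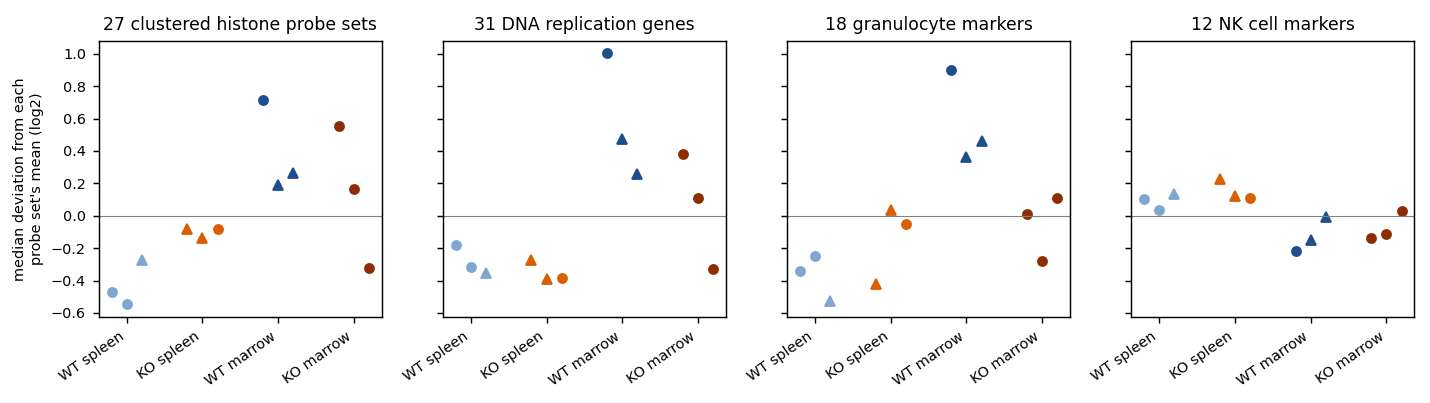
Median deviation of each array from every probe set's own mean (log2) for the 27 clustered histone probe sets, 31 DNA replication genes, 18 granulocyte markers and 12 NK cell markers; each point is 1 array, circles for the first run and triangles for the second. In the clustered histones, knockout bone marrow spans -0.33 to 0.55 and wild type bone marrow 0.19 to 0.71, while the 3 knockout spleen arrays lie between -0.14 and -0.08, above the 3 wild type spleen arrays at -0.55 to -0.27.

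Knockout and wild type NK cells were then compared, first over both tissues. Of the 35 probe sets, 6 were called, 4 higher and 2 lower in knockout cells, against 5.09% of all probe sets called higher and 5.45% lower (10.5% in either direction). The 4 that rose were H2bc4, H2bc8, H1f2 and H3c4, all clustered, and the 2 that fell were the 2 probe sets of H2az1. The median over the 35 was -0.00, with 17 positive and 18 negative differences, against 0.01 over all probe sets.

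The largest genotype difference was that of H2bc4, an H2B gene whose RefSeq gene spans 8282 bases and which is known to give polyadenylated transcripts as well. In spleen the wild type arrays read 6.54, 6.39 and 7.22 and the knockout arrays 9.001, 8.41 and 8.51. In bone marrow the wild type arrays read 7.84, 6.70 and 8.08 and the knockout arrays 10.15, 9.21 and 8.86. Every knockout array lay above every wild type array. The difference was 1.93 ± 0.28 (SE, adjusted p = 0.00078), or 3.80-fold with a 95% interval of 1.32 to 2.54 on the log2 scale. H2bc4 was called over both tissues in all 24 alternatives run, with adjusted p-values from 0.00034 to 0.012.

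H1f2 rose by 0.92 ± 0.16 (SE, adjusted p = 0.0029), or 1.89-fold. In spleen the wild type arrays read 9.08, 8.90 and 9.42 and the knockout arrays 10.18, 9.37 and 10.06. In bone marrow the wild type arrays read 8.70, 9.06 and 8.91 and the knockout arrays 10.32, 9.78 and 9.72. The groups overlapped slightly in spleen and not in bone marrow. H1f2 was called in 23 of 24 alternatives, the exception being the granulocyte covariate (adjusted p = 0.065), with adjusted p-values from 0.00025 to 0.065. The other linker histones were not called: H1f5 gave 0.81 in spleen and -0.65 in bone marrow, and H1f1 gave 0.19 and -0.79.

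H2bc8 rose by 1.00 ± 0.25 (SE, adjusted p = 0.025), from 9.16, 9.32 and 8.94 to 9.84, 9.98 and 9.28 in spleen and from 8.45, 7.31 and 9.10 to 9.82, 9.82 and 9.50 in bone marrow. Its groups overlapped in spleen and not in bone marrow. H3c4, a core H3 gene, rose by 0.48 ± 0.13 (SE, adjusted p = 0.039), from 6.32, 5.91 and 6.33 to 6.81, 6.80 and 6.51 in spleen and from 6.48, 6.20 and 6.10 to 6.85, 6.94 and 6.29 in bone marrow. Those groups overlapped in bone marrow and not in spleen. H2bc21, another H2B gene known to give polyadenylated transcripts, gave 0.68 ± 0.18 (SE) and narrowly missed the threshold (adjusted p = 0.053), although every knockout array (8.35 to 9.09) lay above every wild type array (7.08 to 8.29). A looser property, separation of the genotypes within each tissue on its own, was found upwards in 2 of 35 members, H2bc4 and H2bc21. It was found upwards in 4.24% of all probe sets.

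H2az1 fell in both of its probe sets, by 0.30 and 0.29 on the log2 scale (SE 0.07 each, adjusted p = 0.024 and 0.028). In the first, the spleen arrays read 12.30, 12.31 and 12.43 in wild type and 12.16, 12.10 and 12.09 in knockout. Its bone marrow arrays read 12.33, 12.41 and 12.37 in wild type and 12.21, 11.94 and 11.84 in knockout. In each probe set every knockout array lay below every wild type array. The looser separation within each tissue on its own was found downwards in 4.38% of all probe sets. The 2 probe sets measure 1 gene and are not independent. H2az2, the second H2A.Z gene, read 8.59 to 9.01 in knockout spleen against 8.79 to 9.08 in wild type spleen, and 8.88 to 9.25 in knockout against 9.11 to 9.22 in wild type bone marrow, and was not called.

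These calls also depended on single arrays. The count of 6 fell to 2 without wild type spleen 1, knockout spleen 2 or knockout bone marrow 2, and to 3 without wild type spleen 2, wild type spleen 3 or knockout spleen 1. H2bc8 and H3c4 each lost the call in 11 of 24 alternatives run (adjusted p up to 0.11 and 0.23), and the 2 H2az1 probe sets in 8 of 23 and 12 of 24 (up to 0.27 and 0.29). There were 4 calls when either knockout bone marrow 3 or wild type bone marrow 1 was dropped, and 7 when knockout bone marrow 1 was. When all 35556 deposited probe sets were fitted, 3 members were called, and with the granulocyte covariate 1 (H2bc4).

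Markers of other cells and replication genes differed in the same comparison over both tissues. Of 12 dendritic cell and monocyte markers 5 were higher (Itgax by 1.41, Cd74 by 1.38, H2-Aa by 1.30 and H2-Ab1 by 1.12 among them) and 1 was lower, Ccr2. Only 6 of these 12 markers lay above the 40th percentile. Of 10 T cell markers 5 were lower (Cd3d by -2.10, Cd28 by -1.10, Cd247 by -0.84 and Cd3g by -0.62 among them). Of 31 replication genes 5 were lower (Mcm4 by -0.85, Cdt1 by -0.53, Rfc4 by -0.52 and Mcm7 by -0.42 among them) and 0 higher, and of 18 granulocyte markers Retnlg was lower. Of 12 NK cell markers, Gzma and Cd244a were higher and Itga2 lower. The part of the dendritic cell, T cell and NK cell lists in the histone values was not tested.

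**Figure D3:**
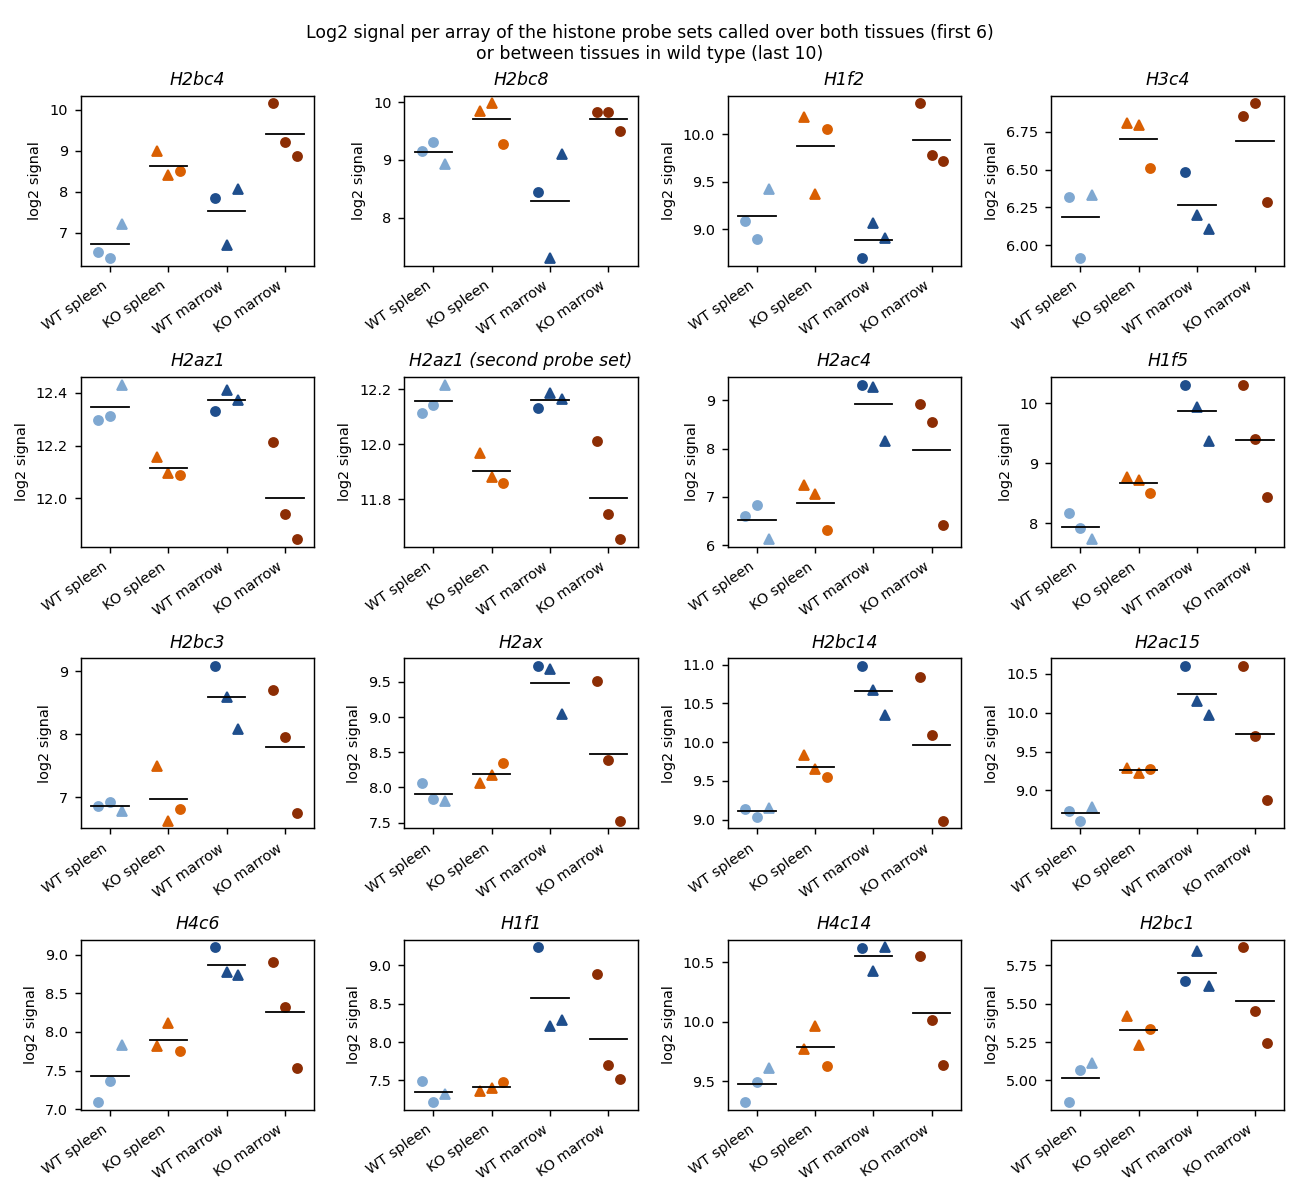
Log2 signal per array of the 16 histone probe sets called over both tissues (first 6 panels) or between tissues in wild type (last 10), with 3 arrays per group, circles for the first run, triangles for the second and a line at each group mean. In H2bc4 all 6 knockout arrays lie above all 6 wild type arrays, in both H2az1 panels they lie below, and in the last 10 panels knockout bone marrow spreads from the wild type bone marrow range to the spleen range.

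In spleen alone, 1 of 35 members was called between knockout and wild type, H2bc4 at 1.87 ± 0.40 (SE, adjusted p = 0.020), against 2.74% of all probe sets called higher, 1.81% lower and 4.55% in either direction. Differences were positive in 25 of the 27 clustered probe sets, with a median of 0.37 against -0.02 over all probe sets. The replication list had a median of -0.00 there, with 0 of 31 genes called. The 3 knockout arrays lay above the 3 wild type arrays in 12 of 35 members, all clustered (H1f5, H2ac15, H2bc1, H2bc4, H2bc9, H2bc14, H2bc21, H2bc22, H3c4, H4c4, H4c8 and H4c14), against 9.56% of all probe sets, and below them in the 2 H2az1 probe sets, against 12.1%. H4c8 was next to H2bc4 by p, at 1.06 ± 0.30 (SE, adjusted p = 0.076), with 6.58, 6.35 and 6.84 in wild type and 7.64, 7.52 and 7.52 in knockout spleen. H1f2 gave 0.69 ± 0.23 (SE, adjusted p = 0.14) and H1f5 0.81 ± 0.38 (SE, adjusted p = 0.33). Over all alternatives the adjusted p of H4c8 ran from 0.0045 to 0.37.

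The spleen call of H2bc4 was lost without wild type spleen 1 or 2 or knockout spleen 1 or 3 (0 called). Without wild type bone marrow 1 there were 2 calls, H2bc4 and H4c8, and without knockout spleen 2 also 2, H2bc4 and H1f2. When limma was given the 6 spleen arrays alone, without the run covariate, 5 members were called: H2bc4, H4c8, H2ac15, H1f5 and H2bc14. The share of all probe sets called in that fit is not given here, so this count shows nothing particular to histones. Other lists moved between the same groups. Of 12 dendritic cell and monocyte markers, 5 were higher and 1 lower in knockout spleen (H2-Aa by 2.00, Cd74 by 1.69, H2-Ab1 by 1.66, Itgax by 1.36, Ccr2 by -1.33). Their summed signals were 5227 to 5934 against 3666 to 4122, and Itgax and Ccr2 had the highest means of the list. Flt3, Siglech, Xcr1, Clec9a, Csf1r and Adgre1 lay below the 40th percentile and were not called. Of 18 granulocyte markers 2 were higher (S100a8 by 1.81, Cxcr2 by 0.78), with 1104 to 2268 against 736 to 1304, and with the granulocyte covariate 0 members were called. Of 10 T cell markers 4 were lower, with 1842 to 2179 against 2393 to 2566. None of 7 erythroid and 10 B cell markers was called, and of the NK cell markers Itga2 was lower, by -0.44. The part of the dendritic cell and T cell lists in the histone values was not tested.

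In bone marrow, 2 of 35 were called, H2bc4 at 1.98 ± 0.45 and H1f2 at 1.15 ± 0.26 higher in knockout cells (SE, adjusted p = 0.029 and 0.028), against 2.07% of all probe sets called higher, 2.13% lower and 4.2% in either direction. Here 25 of the 35 differences were negative, with a median of -0.31 against 0.03 over all probe sets. That median was -0.05 without wild type bone marrow 1 and -0.15 without knockout bone marrow 3. H2ax gave -1.17 ± 0.43 (SE, adjusted p = 0.16), with 9.52, 8.38 and 7.53 in knockout bone marrow against 9.72, 9.68 and 9.05, so the groups overlapped. H2bc18 gave -0.72 ± 0.26 (SE, adjusted p = 0.16) and H2bc8 1.45 ± 0.40 (SE, adjusted p = 0.072). Full separation was seen in 5 members upwards, against 16.5% of all probe sets, and in the 2 H2az1 probe sets downwards, against 11.7%.

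Which genes were called in bone marrow turned on 1 array. Without knockout bone marrow 1, 0 members were higher and 5 were lower: H2ax by -1.69, H1f1 by -1.22, H2ac15 by -1.05, H2bc18 by -1.003 and H4c3 by -0.94. The share of all probe sets called in that fit is not given here. Without both knockout bone marrow 1 and 3, chosen after seeing the data, 1 was lower (H2ax by -1.26) and 0 higher. Without wild type spleen 3 or wild type bone marrow 1, 0 were called, and 1 was called without wild type spleen 1, knockout spleen 3 or knockout bone marrow 2. In the same comparison 5 of 31 replication genes were lower and 0 higher (Mcm4 by -1.11, Mcm3 by -0.97, Rfc4 by -0.75 and Mcm7 by -0.70), with summed signals of 5606 to 8870 in knockout against 8199 to 11839 in wild type. Of 18 granulocyte markers 4 were lower (Retnlg by -1.94, S100a8 by -1.74, Lcn2 by -1.72 and Chil3 by -1.48), with 1739 to 3307 against 4894 to 5767. Of 10 T cell markers 5 were lower, led by Cd3d at -3.14, with summed signals of 1747 to 1993 against 3415 to 3666. Of 12 dendritic cell and monocyte markers 1 was higher, Itgax by 1.46, with summed signals of 5486 to 6031 against 3806 to 4743. Of the NK cell markers Itga2 was lower, by -0.76. The part of the T cell, dendritic cell and NK cell lists in these histone values was not tested. With the replication covariate the called members were H2bc4 and H3c4, and H2ax and H2bc18 came to 0.01 and 0.00. Replication genes were themselves lower in knockout bone marrow, so that fit does not separate list from genotype. Its share of all probe sets called is not given here. With the granulocyte covariate 0 were called. In bone marrow the granulocyte list's level did not overlap between genotypes, at -0.28 to 0.11 in knockout and 0.36 to 0.90 in wild type. List and genotype therefore cannot be told apart there.

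**Figure D4:**
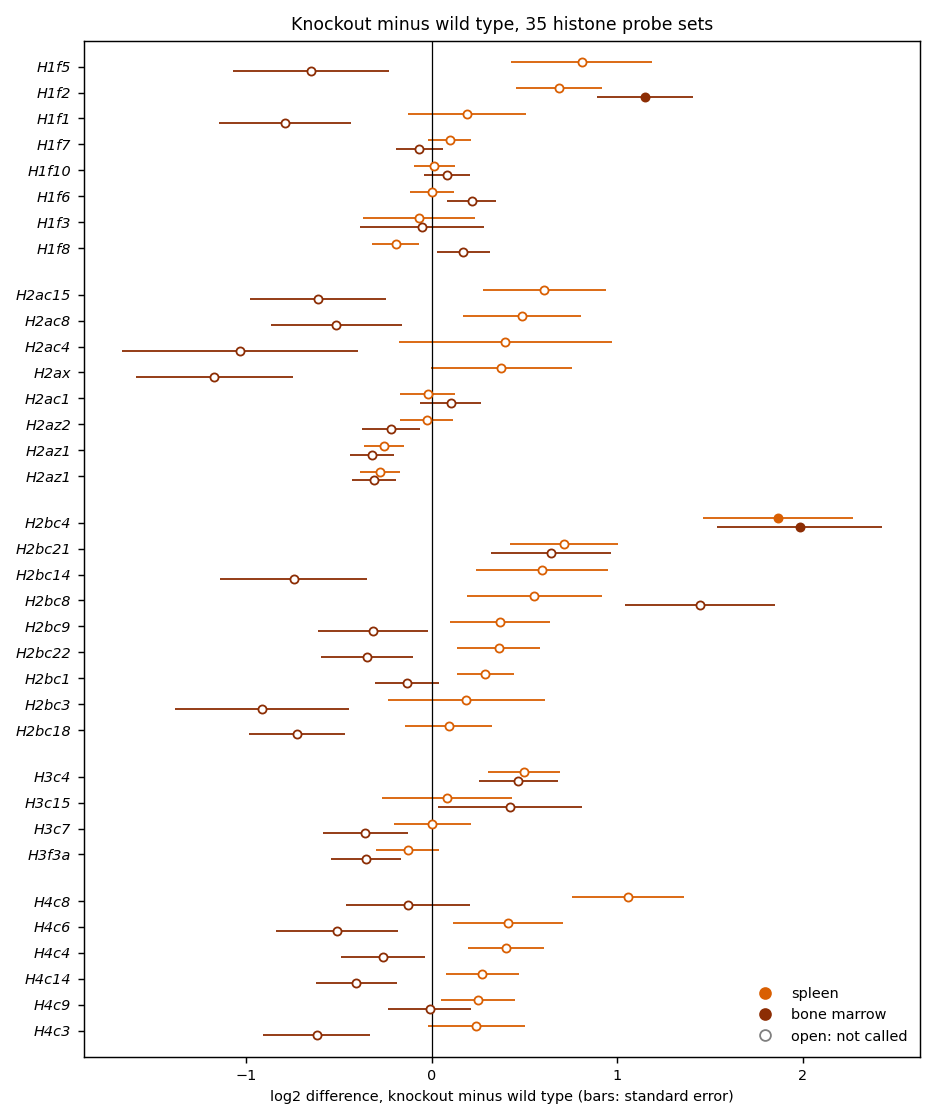
Fitted log2 difference, knockout minus wild type, of the 35 histone probe sets in spleen (orange) and bone marrow (brown), grouped by histone class, with bars of 1 standard error; filled points were called by limma at an adjusted p under 0.05. H2bc4 is filled in both tissues and H1f2 in bone marrow, while 25 of the 27 clustered probe sets lie right of 0 in spleen and 19 of the 27 left of 0 in bone marrow.

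The difference between the knockout effects of the 2 tissues was tested directly. None of the 35 members was called by limma (0, with 6 at an unadjusted p under 0.05), and 0.00459% of all probe sets were. The median of bone marrow effect minus spleen effect was -0.36 over the 35 and -0.68 over the 27 clustered probe sets, against 0.04 over all. Over the 35 it was -0.11 without wild type bone marrow 1 and -0.72 without wild type spleen 3. H2ax had the most negative value, at -1.55 ± 0.57 (SE, adjusted p = 0.52), followed by H1f5 at -1.46, H2ac4 at -1.43 and H2bc14 at -1.34. H2bc4, with 1.87 in spleen and 1.98 in bone marrow, gave 0.12 ± 0.60 (SE, adjusted p = 0.97). The count stayed at 0 in all 24 alternatives run.

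The genes that make and carry histones were examined beside them. Of 24 measured genes of histone mRNA transcription and 3′ processing, 2 were higher in wild type bone marrow than spleen (Cdk2 by 0.79 and Nelfe by 0.48), and 2 were higher in knockout than wild type spleen (Cdk2 by 0.81 and the cleavage scaffold Sympk by 0.69). Of all probe sets, 2.07% and 2.74% were called higher in these 2 comparisons. Over both tissues Sympk (0.47) and Cpsf2 (0.27) rose in knockout cells and Eri1, the exonuclease that trims the histone mRNA end, fell by 0.45. These 3 of 24 lie near the 10.5% of all probe sets called over both tissues. Slbp, which binds the histone mRNA stem-loop, gave -0.13 ± 0.14 in knockout against wild type spleen and -0.51 ± 0.16 in bone marrow (SE, adjusted p = 0.77 and 0.11). Npat, the activator of clustered histone genes, gave 0.07 ± 0.13 and -0.24 ± 0.14 (SE, adjusted p = 0.88 and 0.42).

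Of 28 measured histone chaperones and importers, 3 were higher in wild type bone marrow than spleen: Nap1l1 by 0.86, Chaf1a, a subunit of the CAF-1 assembly factor, by 0.79, and Nasp, an H1 and H3-H4 chaperone, by 0.72. Of all probe sets, 2.07% were called higher in that comparison. In knockout cells the importin Ipo4 rose by 0.46 in spleen and 0.38 over both tissues, where Dek fell by 0.34, a share of 2 of 28 below that of all probe sets. Of 10 measured histone genes that the naming rule leaves out, 1 was higher in wild type bone marrow, H4f16 by 0.71. The centromeric histone gene Cenpa gave 0.69 ± 0.31 (SE, adjusted p = 0.26). A further 32 probe sets carry several symbols that include a histone and were left out by the rule. In the fit of all 35556 probe sets 0 of them were called in any of the 6 comparisons, as 0 of the 35 members were in the wild type tissue comparison of that fit. Their medians were 0.97 for wild type bone marrow against spleen, 0.39 for knockout against wild type in spleen and -0.32 in bone marrow. Over both tissues the knockout difference had a median of -0.01 and ran from -0.15 to 0.10. Several of these probe sets list H2bc4, H2bc8 or H3c4 among their symbols and did not share the rise of those members.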

How the data were processed

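Per the submitters' processing notes, the authors made the deposited log2 signals by RMA (background correction, quantile normalization and summary over probes) in Affymetrix Expression Console; no version or genome build is given there. Per the labels' protocols, 500 pg to 50 ng of total RNA was amplified with the NuGEN Ovation PicoSL WTA system. Array medians lay between 5.75 and 5.87. The platform annotation gave several symbols to 1621 probe sets and none to 12146. limma 3.58.1 in R 4.3.3 was fitted to the other 21789 with 4 group means and the run of array numbers (7 residual and 4.71 prior degrees of freedom), with Benjamini-Hochberg adjustment over all, and was tested on simulated data. Exact permutation of 3 against 3 arrays cannot go below 0.1 and was not used.

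The histone members and the 10 other lists were chosen with earlier results of these data known. Named were the variants H2az1, H2az2, H2ax, H3f3a and H1f10, the linker histones H1f1 to H1f5 that have a probe set, in each comparison the 10 largest called members (or the 5 of smallest p where fewer than 5 were called), and of other lists the 4 largest called genes; other genes named were chosen after their values were seen. The labels call the arrays biological replicates and name no animals, so p-values measure the spread between these samples. The deviations of same-numbered arrays were at most weakly correlated, from -0.03 to 0.18 in 18 pairs and over 0.1 in 5. Differently numbered arrays were not compared, so these values cannot decide whether the numbers mark pairs. The main fit did not take them as pairs. Alternatives covered the filter, 1 probe set per symbol, the whole table, scaling, the run, a replicate block, limma options, the arrays fitted and 3 settings chosen after seeing the data.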

Additional observations from a re-analysis of the deposited data

How the results depend on the processing

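Counts of called histone probe sets changed as follows, with the reported count in brackets. For knockout against wild type in spleen (1), the count was 2 with 1 probe set per symbol, 2 with a mean-variance trend, 5 with only the compared groups, 2 without knockout bone marrow 1 and 3, 4 with the replication covariate, and 0 with the whole table or the granulocyte covariate. For bone marrow (2), it was 3 with 1 probe set per symbol, 4 without the run covariate, 4 with the trend, 1 with robust variance, 1 without knockout bone marrow 1 and 3, and 0 with the whole table or the granulocyte covariate. Over both tissues (6), it was 7 with the 40th percentile filter, a second quantile normalization, no run covariate or the trend, 5 without knockout bone marrow 1 and 3, 3 with the whole table and 1 with the granulocyte covariate. For wild type bone marrow against spleen (10), it was 15 with only the compared groups, 14 without knockout bone marrow 1 and 3, 13 with median centring or the trend, 11 with 1 probe set per symbol, 7 with a second quantile normalization, 5 with robust variance and 0 with the whole table or either list covariate. In knockout cells (0), the replication covariate gave 1, H4c8 at -1.29. Leaving out 1 array at a time gave 0 to 2 in spleen, 0 to 5 in bone marrow, 2 to 7 over both, 0 to 14 between wild type tissues, and 0 for the difference of effects and for knockout tissues. The share of all probe sets called moved as well. In bone marrow it was 4.2% as reported, 8.65% with 1 probe set per symbol and 7.36% without the run covariate. Over both tissues it was 10.5% as reported and 18.2% with the 40th percentile filter. In spleen it was 4.55% as reported and 9.11% with 1 probe set per symbol. Between wild type tissues it was 2.55% as reported and 5.37% with 1 probe set per symbol.

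All reversed signs came from the replication covariate. H2ac4 came to -0.21, H2bc3 to -0.30, H2bc14 to -0.19, H2ac15 to -0.0028 and H1f1 to -0.076 between wild type tissues, and H2bc18 to 0.0038 and H2ax to 0.0083 for knockout against wild type in bone marrow. Over the 19 called member results, 282 of 466 values under alternatives kept their call, 179 lost it and 5 changed sign. With the replicate number as a block beside the run, the counts were 1, 2, 7, 0, 9 and 0 for spleen, bone marrow, both tissues, the difference of effects, wild type tissues and knockout tissues. The whole-table fit tests more probe sets and so adjusts more strictly; the causes of the other changes were not tested. Signal over background was not analysed here, and 8 members lay below the 40th percentile.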
